A study of Mus musculus with 18 samples.

Results

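Atrial and ventricular muscle build their contractile apparatus from partly different genes. Here 6 genes known from the atria, Myl7, Myl4, Sln, Mybphl, Bmp10 and Tbx5, were followed in 18 expression arrays of mouse heart tissue that the labels call ventricular myocardium. All probe sets whose platform symbol is 1 of these names were taken, which gave 9 of the 34945 probe sets that have 1 gene symbol, or 6 of 18193 genes. All 6 genes passed a filter on low mean signal. The genes were chosen on their uneven signal in earlier results of these same arrays, so their levels and their co-variation are given as a description, with no test.

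The study compared 5 calorie restricted ob/ob mice, 5 leptin treated ob/ob mice, 4 ob/ob mice fed ad libitum and 4 wild type C57Bl/6J mice. The ob/ob mutation removes functional leptin, so every ob/ob animal, the ad libitum controls included, lacked its own leptin, and all carried the mutation on a C57Bl/6J background. The ob/ob mice ate freely up to the age of 6 months and were then treated for 1 month, the leptin group with mouse leptin from an osmotic pump and the restricted group with the amount of food that the leptin group ate. The wild type mice are labelled as 6 months old, and the series' design text gives a range of ages that begins there. RNA came from 45 to 60 mg of minced heart, and how the atria were parted from the ventricles is not given in the sources used here. No label says in words that each array is a separate animal, so the spread between arrays may be partly technical.

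In the adult heart, myosin carries 1 set of light chains in the atria and another in the ventricles. Myl7 encodes the atrial regulatory light chain and Myl4 the atrial essential light chain, where the ventricle uses Myl2 and Myl3. Sln encodes sarcolipin, a small membrane protein that restrains the calcium pump of the sarcoplasmic reticulum, the role that phospholamban, the product of Pln, plays in the ventricle. Mybphl encodes a relative of cardiac myosin binding protein C found in the atrial sarcomere, and Bmp10 a secreted ligand of the bone morphogenetic protein family made by the atrial wall. Tbx5 encodes a T-box transcription factor needed for the atria and for septation of the heart, and the left ventricle expresses it too.

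The promoters of the atrial members are shown because their transcripts moved together between arrays. RefSeq entries on GRCm38.p6 were matched for 4 members, Myl7, Myl4, Mybphl and Bmp10, and the 250 bases before each gene's start are given 5′ to 3′ on the gene's strand, with capitals marking the letters of a searched motif.
Myl7 (chr11:5898783-5899032, minus strand): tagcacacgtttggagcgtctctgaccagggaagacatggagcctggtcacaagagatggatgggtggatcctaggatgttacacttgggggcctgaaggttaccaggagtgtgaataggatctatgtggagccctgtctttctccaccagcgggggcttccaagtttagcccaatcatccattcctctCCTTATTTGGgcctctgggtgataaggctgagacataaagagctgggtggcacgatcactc
Myl4 (chr11:104550413-104550662, plus strand): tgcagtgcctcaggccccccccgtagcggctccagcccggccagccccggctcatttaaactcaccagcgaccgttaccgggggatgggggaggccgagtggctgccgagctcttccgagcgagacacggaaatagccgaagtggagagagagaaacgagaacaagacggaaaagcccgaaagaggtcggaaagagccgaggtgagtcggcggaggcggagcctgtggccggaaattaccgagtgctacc
Mybphl (chr3:108364661-108364910, plus strand): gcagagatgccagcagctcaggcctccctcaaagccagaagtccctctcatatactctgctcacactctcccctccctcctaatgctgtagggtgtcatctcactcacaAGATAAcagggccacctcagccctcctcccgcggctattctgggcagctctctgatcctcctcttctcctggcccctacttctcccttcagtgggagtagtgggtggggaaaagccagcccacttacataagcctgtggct
Bmp10 (chr6:87428744-87428993, plus strand): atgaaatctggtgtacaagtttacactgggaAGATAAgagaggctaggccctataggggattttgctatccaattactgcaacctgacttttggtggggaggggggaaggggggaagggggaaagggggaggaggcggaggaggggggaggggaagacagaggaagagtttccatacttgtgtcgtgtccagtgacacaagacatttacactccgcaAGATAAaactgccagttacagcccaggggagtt

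The motifs searched, on both strands, were the GATA motif AGATAA, the T-box half-site AGGTGT, the TATA motif TATAAA, the NK homeodomain motif CACTTNA, the MEF2 motif and the CArG box, the site of serum response factor. Myl7 held a CArG box that began 61 bases before its start, a motif found in 1.47% of 32851 promoters of this length. Mybphl held the GATA motif 141 bases before its start, and Bmp10 held it at 219 and at 33 bases, against 9.99% of all promoters. The Myl4 window held no searched motif and lies inside the annotated span of its own gene, chr11:104546017-104587215. The same search found the T-box half-site in 11.8%, the TATA motif in 12.4%, the NK homeodomain motif in 10.1% and the MEF2 motif in 2.92% of all promoters, and in none of these 4 windows. A match of letters is no evidence of binding.

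The Myl7 probe set (1449071_at; gene at chr11:5896637-5898782) had MAS5 signals of 635, 3448, 3548, 3.58 and 159 in calorie restricted replicates 1 to 5. It had 62.1, 264, 47.7, 7.79 and 78.7 in leptin replicates 1 to 5, 438, 2.89, 4.73 and 2.52 in ad libitum replicates 1 to 4, and 92.7, 674, 539 and 115 in wild type replicates 1 to 4. Signals of 1 probe set can be set against each other between arrays, but not against another probe set's. Calorie restricted replicates 2 and 3 were the highest of all 18 arrays and calorie restricted replicate 4 was among the lowest, so the restricted group alone spanned nearly the whole range. In 4 arrays the signal lay at or below 5.13, the pseudocount that was added before taking log2, where values carry no order. The group medians were 635 in calorie restricted, 62.1 in leptin treated and 3.81 in ad libitum ob/ob hearts and 327 in wild type hearts, and no 2 of the 4 groups were free of overlap.

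Myl4, the partner light chain (1422580_at; chr11:104546017-104587215), had signals of 555, 3213, 3573, 48.4 and 185 in the calorie restricted arrays and 135, 334, 130, 88.6 and 148 in the leptin arrays. It had 430, 47.8, 65.2 and 65.5 in the ad libitum arrays and 185, 558, 503 and 190 in the wild type arrays. The arrays took the places they had for Myl7: the same 2 restricted arrays were far above the rest, leptin replicate 2 and ad libitum replicate 1 led their groups, and wild type replicates 2 and 3 lay above wild type replicates 1 and 4. The groups overlapped again. A second Myl4 set (1457126_at) stayed between 21.3 and 69.5 and did not follow this order.

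Sln (1420884_at; chr9:53850251-53853849) had signals of 166, 1918, 2038, 1.43 and 38.2 in the calorie restricted arrays and 4.47, 66.3, 1.45, 1.12 and 5.04 in the leptin arrays. It had 98.1, 0.956, 1.10 and 1.54 in the ad libitum arrays and 2.48, 192, 144 and 5.12 in the wild type arrays. Sarcolipin transcript was thus close to undetected in most hearts, with 10 of 18 arrays at or below the pseudocount, and far above it in the same arrays that led for the light chains. The second Sln set (1420883_at) was dim, from 2.64 to 42.3, with 24.4 and 42.3 in calorie restricted replicates 2 and 3. It did not follow the first set in the other arrays. The 2 Sln sets correlated at r = 0.52 over the 18 arrays (Spearman's rho 0.067), and at r = -0.072 without those 2 restricted arrays. Ad libitum replicate 1, which led its group on the first set, was the lowest ad libitum array on the second.

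**Figure D1:**
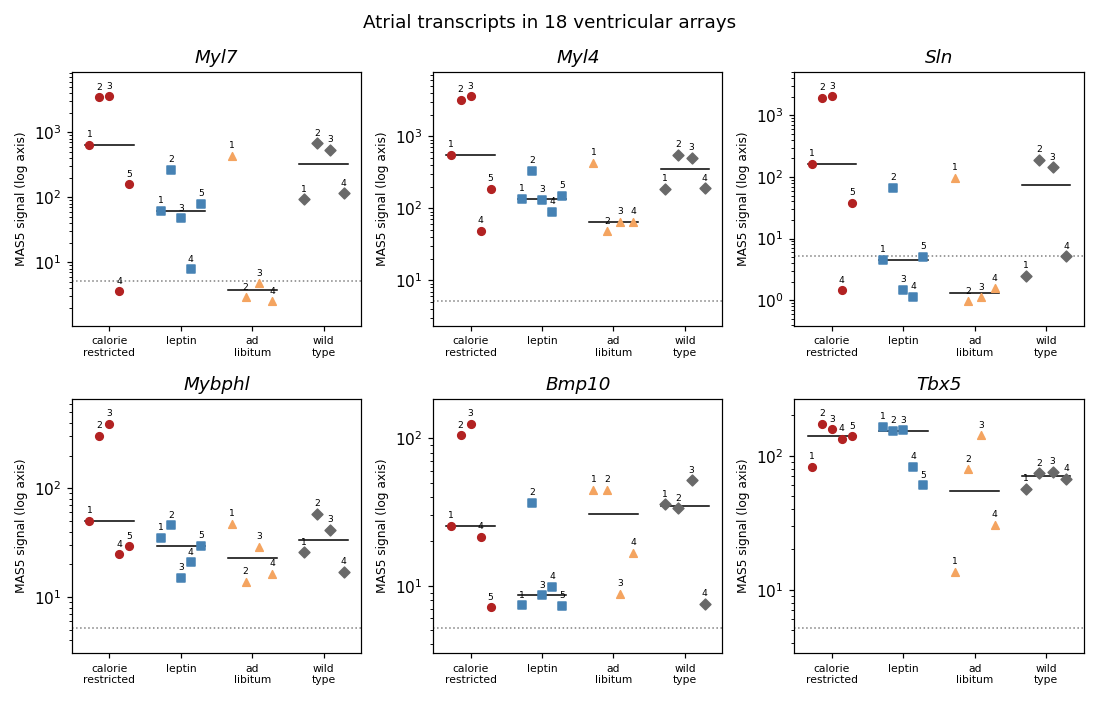
MAS5 signal on log axes of the highest-mean probe set of Myl7, Myl4, Sln, Mybphl, Bmp10 and Tbx5 in each of the 18 arrays, with replicate numbers beside the points, black lines at the group medians and a dotted line at the pseudocount of 5.13. Calorie restricted replicates 2 and 3 are the highest arrays for the first 5 genes, and Tbx5 shows no such gap.

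Mybphl (1430269_at; chr3:108364911-108380057) had signals of 50.0, 305, 392, 24.7 and 29.2 in the calorie restricted arrays and 35.0, 45.7, 15, 20.8 and 29.5 in the leptin arrays. It had 46.8, 13.8, 29.0 and 16.4 in the ad libitum arrays and 25.7, 57.8, 41.3 and 17.0 in the wild type arrays. This sarcomere protein's set never fell to the pseudocount, and outside calorie restricted replicates 2 and 3 it stayed between 13.8 and 57.8. The array that led each group was the same as for Myl7.

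Bmp10, the secreted ligand (1421763_at; chr6:87428994-87434512), had signals of 25.4, 105, 126, 21.4 and 7.14 in the calorie restricted arrays and 7.39, 36.6, 8.60, 9.83 and 7.33 in the leptin arrays. It had 44.7, 44.8, 8.85 and 16.7 in the ad libitum arrays and 35.7, 33.6, 52.0 and 7.52 in the wild type arrays. The 2 restricted arrays and leptin replicate 2 stood out as for the light chains, but ad libitum replicate 2, with Myl7 under the pseudocount, was level with ad libitum replicate 1. Wild type replicate 1 also ranked higher for Bmp10 than for the light chains.

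Tbx5, the transcription factor (1425695_at; chr5:119796514-119885220), had signals of 82.3, 173, 158, 134 and 139 in the calorie restricted arrays and 165, 153, 154, 82.2 and 60.1 in the leptin arrays. It had 13.6, 79.1, 142 and 30.6 in the ad libitum arrays and 56.6, 73.9, 76.0 and 66.8 in the wild type arrays. Ad libitum replicate 1, the array that led its group for Myl7, Myl4, Sln and Mybphl, was the lowest of all 18 for Tbx5. The second Tbx5 set (1425694_at) had 83.1, 118, 151, 105 and 106 in the calorie restricted arrays, 95.1, 115, 77.5, 100 and 91.2 in the leptin arrays, 52.3, 61.7, 61.7 and 63.2 in the ad libitum arrays and 47.3, 82.4, 101 and 58.9 in the wild type arrays. On that set every calorie restricted and leptin array lay above every ad libitum array, while on the first set these groups overlapped. How many other genes separate groups in this way was not counted, so this is a description. The 2 Tbx5 sets correlated with each other at r = 0.65 over the 18 arrays. Since the left ventricle expresses Tbx5 too, it was kept out of the summary of the atrial signal used below.

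The order of the group medians on the highest-mean set of each gene differed between members. Calorie restricted hearts came first for Myl7, Myl4, Sln and Mybphl, wild type hearts second and leptin treated and ad libitum hearts after them, with ad libitum last for Myl7, Myl4 and Mybphl. For Sln the leptin and ad libitum medians both lay under the pseudocount and have no order. For Bmp10 wild type hearts came first and leptin treated hearts last. On the first Tbx5 set leptin treated hearts came first and ad libitum hearts last. The second Tbx5 set had calorie restricted hearts first (median 106, against 95.1 in leptin treated hearts) and ad libitum hearts last as well. For Myl7, Myl4, Sln, Mybphl and Bmp10 every group overlapped with its neighbours in the order. On the first Tbx5 set every calorie restricted array lay above every wild type array, but on the second set these groups overlapped. The share of all genes without such overlap was not counted.

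The spread between arrays of 1 group is where these genes stood apart as a description. The pooled SD within groups, in log2 of signal plus pseudocount, was 2.58 for Myl7, 2.54 for Sln and 1.63 for Myl4, which were the first, the second and the third of 13359 tested genes, against a median gene of 0.22. Mybphl ranked 10 (1.08) and Bmp10 ranked 12 (1.06), while Tbx5 ranked 290 (0.73). These are values of the highest-mean sets. The second sets spread less, with 0.43 for Myl4, 0.70 for Sln and 0.29 for Tbx5. The genes that lay between Myl4 and Bmp10 in rank, Mybphl aside, were Cfap61 (1.28), Marchf10, Ccdc33, Cklf, Slfn9, Bex3 (1.10) and Susd5. None of them is in the atrial lists, and they were named after their values were seen.

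**Figure D2:**
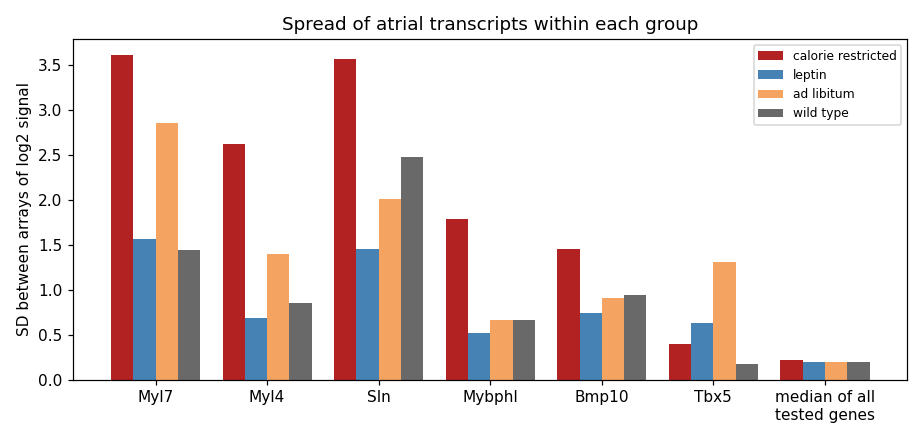
Standard deviation between arrays of log2(signal + pseudocount) for the highest-mean set of each atrial member. Groups are calorie restricted (n = 5), leptin (n = 5), ad libitum (n = 4) and wild type (n = 4), with the median of all 13359 tested genes at the right. Bars start at 0. Myl7, Myl4, Sln, Mybphl and Bmp10 lie above the median gene in all 4 groups, and the calorie restricted bar is the tallest for each of these 5 genes.

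The unevenness was not confined to 1 group. The SD of Myl7 was 3.61 in calorie restricted, 1.57 in leptin treated, 2.86 in ad libitum and 1.45 in wild type hearts, and that of Sln was 3.57, 1.45, 2.01 and 2.48 in the same order. Calorie restricted replicates 2 and 3 together with the low replicate 4 made up 10.2%, 10.5% and 33.1% of the within-group sum of squares of Myl7, and ad libitum replicate 1 made up 19.7%. For the first Tbx5 set ad libitum replicates 1 and 3 made up 30.8% and 28.3%, so its spread came largely from other arrays.

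On the highest-mean set of each gene the members rose and fell together, with Tbx5 as the exception. Across the 18 arrays Myl7 and Myl4 correlated at r = 0.97 (Spearman's rho 0.98), and at r = 0.98 without calorie restricted replicates 2 and 3, so this pairing did not rest on those arrays. Each gene was also set against the mean log2 signal of the other index genes. That correlation was 0.98 for Myl4, 0.97 for Sln, 0.91 for Myl7, 0.91 for Mybphl and 0.73 for Bmp10, and without the 2 arrays farthest from the median it was 0.96, 0.93, 0.90, 0.82 and 0.44. For Bmp10 the rank correlation was 0.43. For Tbx5 it was r = 0.15, and its second set gave 0.50, which was 0.15 without the 2 farthest arrays. The other second sets did not follow through all arrays. Against the mean of all index genes the second Myl4 set gave r = 0.03. The second Sln set gave 0.51, which was -0.14 without the 2 farthest arrays. These are descriptions over arrays of 4 groups, and each array's values share its RNA sample and scaling.

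**Figure D3:**
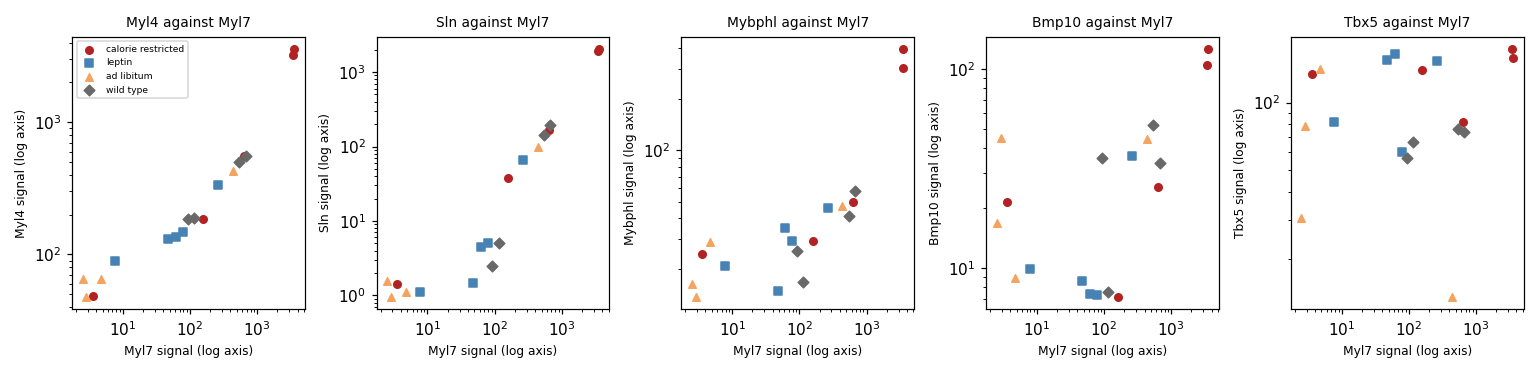
Signal of the highest-mean probe set of Myl4, Sln, Mybphl, Bmp10 and Tbx5 against that of Myl7 in the same array, both on log axes. Each has 1 point per array (n = 18) coloured by group. Myl4 and Sln follow Myl7 through arrays of all 4 groups, Mybphl and Bmp10 follow it less closely, and Tbx5 shows no such relation (r = 0.15 with the mean of the index genes).

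The atrial index of an array was defined as the mean log2 signal over Myl7, Myl4, Sln, Mybphl and Bmp10. It was 7.32, 9.88, 10.05, 4.24 and 5.82 in the calorie restricted arrays, 5.09, 6.74, 4.73, 4.30 and 5.15 in the leptin arrays, 7.12, 4.24, 4.20 and 4.14 in the ad libitum arrays, and 5.48, 7.48, 7.33 and 5.20 in the wild type arrays. The means were 7.46 ± 2.53 in calorie restricted (SD, n = 5), 5.20 ± 0.92 in leptin treated (n = 5) and 4.92 ± 1.46 in ad libitum hearts (n = 4), and 6.38 ± 1.20 in wild type hearts (n = 4). In a bulk sample, more cells of an atrial kind and more of these transcripts in each cell cannot be told apart.

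Calorie restricted replicates 2 and 3 lay close to other arrays in measures of array quality, in some of them at the low end. Their median signals were 26.0 and 28.1, within the 22.3 to 31.8 of all arrays. Their 3′ to 5′ signal ratios, a measure of RNA integrity, were 0.797 and 0.802 for Gapdh, where all arrays ran from 0.797 to 0.868, and 1.28 and 1.13 for actin, where they ran from 1.13 to 1.41. Replicate 2 was thus the lowest array for the Gapdh ratio and replicate 3 for the actin ratio, and the next lowest arrays were ad libitum replicate 1 (0.798) and wild type replicate 4 (1.14). Array correlations ran from 0.943 to 0.971, and no 2 arrays held identical values.

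Genes outside the 6 members were then tested for following the index within groups, which asks what else in the tissue came and went with the atrial transcripts. limma fitted a slope, in log2 units of the gene per log2 unit of the index, beside a term for each group. The members define the index and were left out of the adjustment. With Benjamini-Hochberg adjustment at 0.05 over the others, 0 of 13353 genes rose and 0 fell, a background of 0% in each direction, while 627 had a positive and 274 a negative slope at an unadjusted p under 0.05. For comparison the members' own slopes, which the index fixes and which are no result, were 1.48 for Sln, 1.47 for Myl7, 0.96 for Myl4, 0.59 for Mybphl and 0.50 for Bmp10. On simulated data with 100 genes given each slope, the same fit recovered 94% at a slope of 0.5 and 77% at 0.25. Of its calls 6.04% were false. These shares depend on how many genes were given a slope. In the arrays, slopes of 0.40 for Hamp and 0.47 for Dkk3 did not pass, so the shares do not tell which slopes could be found here.

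The 4 positive slopes with the smallest p were those of Hamp, Nppa, Mast1 and Fgl2, and none passed the test. Hamp, which encodes hepcidin, the peptide that controls iron export, had a slope of 0.40 ± 0.067 (SE; limma adjusted p = 0.265) and a correlation of 0.84 with the index within groups. Its signals were 326 and 387 in calorie restricted replicates 2 and 3 and 32.9 to 91.8 in the other 16 arrays, so no other array reached those 2. A second Hamp set gave 436 and 668, against 19.8 to 96.7. Hamp2 is a near-identical copy in the mouse, and the set used for Hamp may not separate the 2 genes.

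Nppa encodes atrial natriuretic peptide, stored in atrial granules and also made by stressed ventricles. Its slope was 0.36 ± 0.065 (limma adjusted p = 0.265), with 5724 and 5566 signal units in calorie restricted replicates 2 and 3 and 467 to 2551 in the other 16 arrays. The highest of those 16 was a leptin array, replicate 5, whose index of 5.15 was close to the leptin mean, so Nppa did not follow the index there. Mast1, a microtubule associated kinase, had a slope of 0.16 (adjusted p = 0.265) and Fgl2, a fibrinogen-like protein, 0.16 (adjusted p = 0.265).

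The 4 negative slopes with the smallest p were those of the olfactory receptor gene Olfr1508 (-0.39, limma adjusted p = 0.265), the mitochondrial protease gene Oma1 (-0.086, adjusted p = 0.323), Tmem150a (-0.069, adjusted p = 0.440) and the endocytic adaptor gene Itsn1 (-0.065, adjusted p = 0.440). None passed the test.

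Of 14 other genes known from the atria, 12 had a usable probe set and 11 were tested. None passed the slope test, 9 of 11 had a positive slope, against 7473 of 13353 over all other genes, and 3 had an unadjusted p under 0.05, with a median slope of 0.055 against 0.0057 over all other genes. This list and those below were chosen with earlier results of these data known, so their shares are a description. Dkk3, a secreted protein of the Dickkopf family, had a slope of 0.47 ± 0.092 (limma adjusted p = 0.265), with 230 and 274 signal units in calorie restricted replicates 2 and 3 and 17.1 to 53.7 in the other 16 arrays. Its second set gave 323 and 477, against 10.5 to 71.2. Stard10, a lipid transfer protein, had 818 and 947 in those 2 arrays and 294 to 445 in the others (slope 0.16, adjusted p = 0.323). The summed signal of the 12 genes with a usable probe set ran from 2870 to 8449 in calorie restricted hearts. It ran from 3066 to 4284 in leptin treated, 2131 to 2855 in ad libitum and 2558 to 3515 in wild type hearts.

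**Figure D4:**
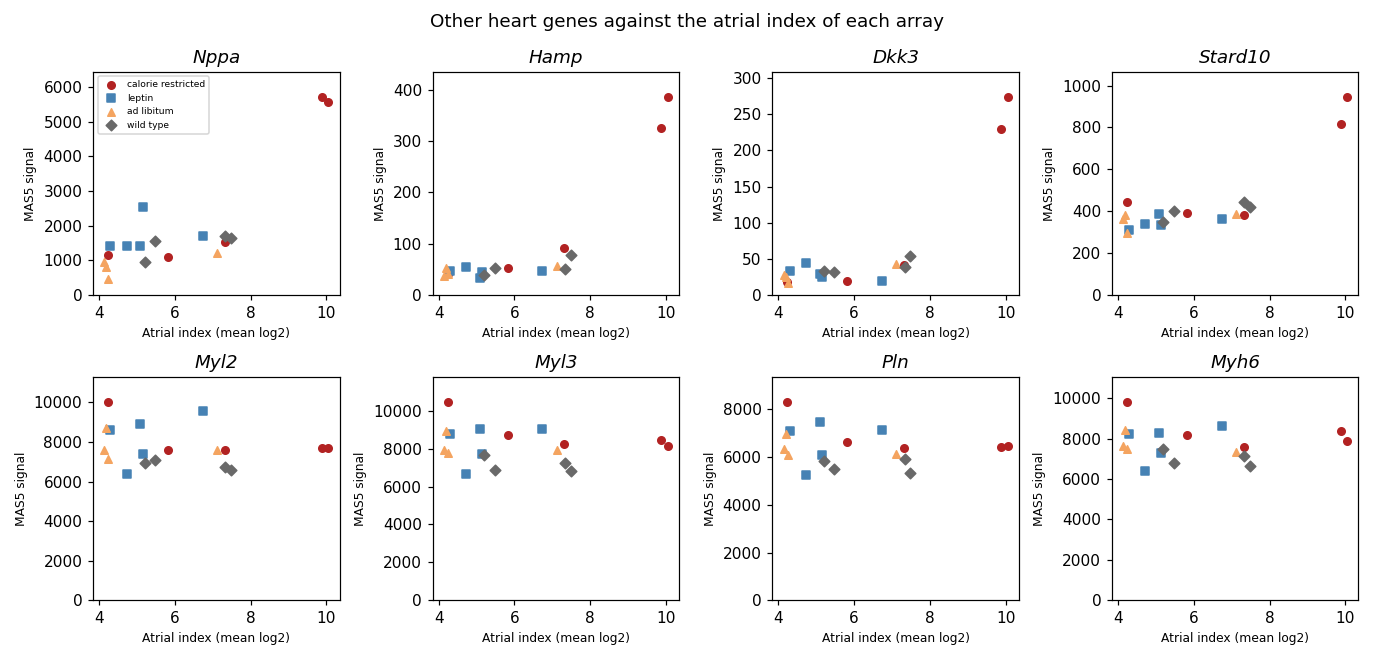
MAS5 signal, on a linear axis from 0, of the atrial genes Nppa, Dkk3 and Stard10 and of Hamp (top) and of Myl2, Myl3, Pln and Myh6 (bottom) against the atrial index of the same array, 1 point per array coloured by group (n = 18). The top genes are highest in the 2 calorie restricted arrays at an index near 10 and show no such gap among the other 16, and the bottom genes stay within the range of the other arrays in those 2.

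Some of these slopes were smaller without calorie restricted replicates 2 and 3: 0.18 for Hamp, 0.19 for Nppa, 0.16 for Dkk3 and 0.035 for Stard10. Others changed less, with 0.19 for Mast1, 0.12 for Fgl2 and -0.52 for Olfr1508. Again 0 genes passed in either direction, with 481 positive and 404 negative slopes at an unadjusted p under 0.05.

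Ventricular genes lay within their usual range where atrial transcripts were high. Myl2, the ventricular regulatory light chain, gave 7676 and 7707 signal units in calorie restricted replicates 2 and 3 and 6368 to 10029 in the other 16 arrays (slope -0.025, limma adjusted p = 0.891). Myl3, the ventricular essential light chain, had 8470 and 8159, against 6676 to 10468. Of 10 ventricular genes, none passed and none had an unadjusted p under 0.05. Of 12 sarcomere genes that both chambers use, 0 had a positive slope and 1 had an unadjusted p under 0.05, Ttn, the giant spring protein titin (-0.072, adjusted p = 0.648). Their median slope was -0.026.

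The cardiac transcription factors gave 0 calls among 11 tested, with a median slope of 0.0057, the same as that of all genes. Tbx20, a T-box factor of heart muscle, gave 1094 and 1098 signal units in calorie restricted replicates 2 and 3 and 567 to 918 in the other 16 arrays. Its other sets gave less of a gap, with 153 and 205 against 89.2 to 156 on 1 set and 40.6 and 50.7 against 14.4 to 43.0 on another, where calorie restricted replicate 2 lay within the range of the other 16. The slope of the first set turned negative without those 2 arrays. Among genes of the sinus node and conduction system, which lie in the right atrium and its borders, 1 of 7 tested had an unadjusted p under 0.05, Cpne5 (0.13, limma adjusted p = 0.478). Hcn4, the pacemaker channel gene, was not analysed here.

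Markers of the epicardial mesothelium, the cell layer on the outside of the heart, had the largest median slope of the cell type lists, 0.12. This place rested on calorie restricted replicates 2 and 3. Without them the epicardial median was 0.048, under those of the lung (0.15) and nerve (0.093) lists. None of 11 tested epicardial genes passed. A positive slope was seen in 10 of 11, against 7473 of 13353 over all other genes, and 5 of 11 had it at an unadjusted p under 0.05, against 627 of 13353. Lrrn4, a mesothelial surface protein, gave 41.6 and 32.0 signal units in calorie restricted replicates 2 and 3 and 5.03 to 23.5 in the other 16 arrays (slope 0.26, limma adjusted p = 0.323). Upk3b, a mesothelial uroplakin, had 99.9 and 85.1, against 13.2 to 60.6 (slope 0.20, adjusted p = 0.677), and its second set had 15.1 and 24.9, against 1.42 to 4.64. The keratin gene Krt18 had a slope of 0.20 and the membrane glycoprotein gene Gpm6a 0.15 (adjusted p = 0.713). Aldh1a2, the retinoic acid enzyme of epicardium and atria, went the other way in sign (-0.15, adjusted p = 0.758). Its signal lay under the pseudocount in all calorie restricted arrays (1.18 to 4.15). Without calorie restricted replicates 2 and 3 the slopes were 0.17 for Lrrn4, 0.050 for Upk3b, 0.18 for Krt18, -0.0072 for Gpm6a and -0.31 for Aldh1a2.

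The summed signal of the 14 listed epicardial genes, those under the filter included, ran from 347 to 693 in calorie restricted hearts. It ran from 426 to 519 in leptin treated, 387 to 537 in ad libitum and 463 to 577 in wild type hearts. Markers of endocardium and valve gave 2 of 7 and lung markers 2 of 5 with an unadjusted p under 0.05, all positive. Markers of vascular smooth muscle gave 1 of 9 and those of nerve 1 of 5. Fibroblast, endothelial, macrophage, lymphocyte, adipocyte, skeletal muscle and erythroid lists gave 0 in both directions. The part of these other cell types in the atrial signal was not tested.

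The group comparisons of the study were then read for the other atrial genes, since the index is uneven between groups. The comparisons share arrays: the ad libitum group enters 3 of the 4. Between calorie restricted and ad libitum hearts 2 of 11 rose and 0 fell by limma's test, against 2.46% and 2.97% of all 13359 genes, and the list's median was 0.32 against -0.0016 over all genes. Angpt1, the ligand of the endothelial receptor Tie2, rose by 0.87 ± 0.15 in log2 (SE; adjusted p = 0.00269), with mean signals of 267 in calorie restricted and 149 in ad libitum hearts. Kcnj5, a subunit of the acetylcholine-gated potassium channel of atrial muscle, rose by 0.54 (adjusted p = 0.0418).

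Kcnj5 had signals of 191, 286, 302, 192 and 275 in the calorie restricted arrays, against 166, 192, 156 and 156 in the ad libitum arrays. Its highest arrays were calorie restricted replicates 2 and 3, and calorie restricted replicate 1 lay level with ad libitum replicate 2. Without those 2 arrays Kcnj5 did not pass (0.36, limma adjusted p = 0.258), nor did it at equal atrial index (0.42, adjusted p = 0.230). Angpt1 passed both ways (0.82, adjusted p = 0.0240, and 0.78, adjusted p = 0.0261). Angpt1 and, below, Kcnj3 were named after their values were seen.

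Between leptin treated and calorie restricted hearts 4 of 11 fell and 0 rose, against 5.72% and 7.9% of all genes, and the list's median was -0.47 against -0.025 over all genes. The 4 were Angpt1 (-0.50, limma adjusted p = 0.0253), Kcnj5 (-0.56, adjusted p = 0.0122), Stard10 (-0.67, adjusted p = 0.0461) and Kcnj3, the partner subunit of Kcnj5 (-0.36, adjusted p = 0.0491). None of the 4 passed without calorie restricted replicates 2 and 3 or at equal index. Stard10 was then at -0.22 (adjusted p = 0.276) and -0.31 (adjusted p = 0.317), and Kcnj5 at -0.39 (adjusted p = 0.121) and -0.46 (adjusted p = 0.0835). The changes of the others stayed about as large, with -0.46 (adjusted p = 0.126) and -0.43 (adjusted p = 0.126) for Angpt1 and -0.37 (adjusted p = 0.134) and -0.38 (adjusted p = 0.105) for Kcnj3. Between leptin treated and ad libitum hearts, and between ad libitum and wild type hearts, 0 of 11 passed in either direction. Of all genes 0.404% rose and 0.24% fell in the comparison of leptin treated with ad libitum hearts, and 0.112% rose and 0.187% fell in that of ad libitum with wild type hearts.

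Of the 11 epicardial genes 1 rose and 0 fell between calorie restricted and ad libitum hearts, against 2.46% and 2.97% of all genes. The counts were 1 and 1 between leptin treated and calorie restricted hearts, against 7.9% and 5.72%. They were 1 and 0 between leptin treated and ad libitum hearts, against 0.404% and 0.24%. For ad libitum against wild type hearts they were 0 and 1, against 0.112% and 0.187%. In the last 2 comparisons the gene was Aldh1a2 (1.62, limma adjusted p = 0.0424, and -2.09, adjusted p = 0.0305). It passed at equal index in both, but in neither without calorie restricted replicates 2 and 3 (limma adjusted p = 0.0796 and 0.0587). Neither comparison holds a restricted array, so the Aldh1a2 changes themselves were the same without those arrays (1.62 and -2.09). Gpm6a rose by 1.09 in calorie restricted over ad libitum hearts (limma adjusted p = 0.0406), but did not pass without calorie restricted replicates 2 and 3 (0.61, adjusted p = 0.238) or at equal index (0.72, adjusted p = 0.276). Gpm6a fell by 1.20 in leptin treated against calorie restricted hearts (adjusted p = 0.00876). That change did not pass either without those arrays (-0.72, adjusted p = 0.0769) or at equal index (-0.87, adjusted p = 0.0733). Aldh1a2 rose by 2.71 in that comparison (adjusted p = 6.57e-05) and passed without those arrays (2.68, adjusted p = 0.00136) and at equal index (2.36, adjusted p = 7.40e-04). Nppb, the natriuretic peptide of the loaded ventricle, fell by 2.0 in calorie restricted against ad libitum hearts (limma adjusted p = 0.00335). It passed at equal index as well (-2.16, adjusted p = 0.0125). In leptin treated against calorie restricted hearts Nppb rose by 1.61 (adjusted p = 0.00432).

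Over all genes, fewer were called in 3 of the 4 comparisons without those arrays and at equal index, and why was not tested. Between calorie restricted and ad libitum hearts 358 genes were called without calorie restricted replicates 2 and 3 and 340 at equal index, against 725 (5.43% of those tested) with all arrays, and 323 and 300 of these were among the 725. Leaving out ad libitum replicate 4 alone gave 444. Between leptin treated and calorie restricted hearts the counts were 1029 and 1156, against 1819 (13.6%), with 937 and 1071 shared. Between leptin treated and ad libitum hearts they were 69 and 86, against 86 (0.644%), with 64 and 76 shared. Between ad libitum and wild type hearts they were 18 and 17, against 40 (0.299%), with 15 and 14 shared. Leaving out arrays also lowers the number of samples behind the spread, which all comparisons use, so the last 2 comparisons can change although no restricted array enters them directly. Without 1 array of the groups compared, the counts went down to 35 between leptin treated and ad libitum hearts (leptin replicate 2 left out) and to 5 between ad libitum and wild type hearts (ad libitum replicate 3 left out).

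**Figure D5:**
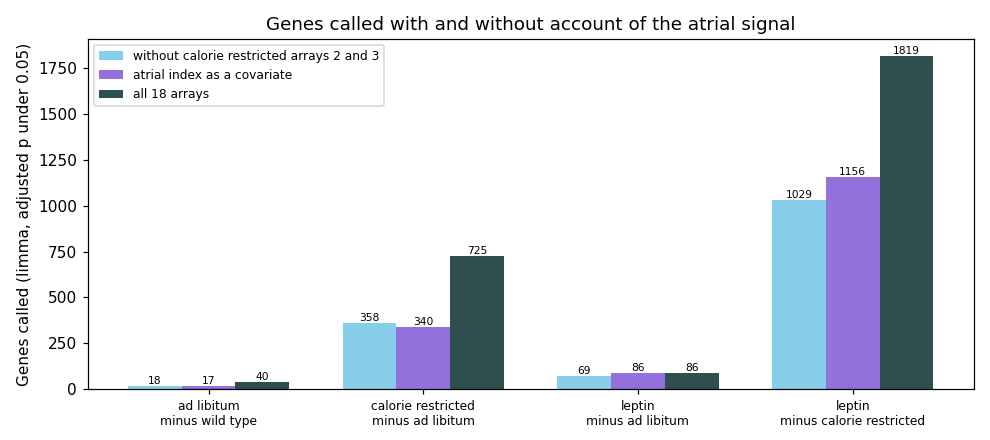
Number of genes called by limma at an adjusted p under 0.05 in each of the 4 group comparisons, without calorie restricted arrays 2 and 3, with the atrial index as a covariate, and with all 18 arrays. Bars start at 0 and carry their counts. The comparison of leptin with calorie restriction goes to 1029 and 1156 genes, against 1819.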

How the data were processed

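RNA of 18 heart samples was hybridised to 1 Affymetrix mouse array each. The deposited values are linear intensity signals made by the authors with MAS5, per the submitters' processing notes. The trimmed mean (2% off each end) was 100.001 on every array, so arrays had been scaled to a common level. Symbols came from the platform annotation: 34945 of 45101 probe sets had 1 symbol, 932 several and 9160 none here, and 64 were controls. For each gene the probe set with the highest mean was used. Signals were taken as log2(signal + 5.13), the pseudocount being the 20th percentile, so differences of dim genes are understated. Genes with a mean log2 under 4.36, the 40th percentile of probe sets, were left out, which left 13359.

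limma 3.58.1 in R 4.3.3 fitted a coefficient per group over all arrays, and for slopes the atrial index as well, with Benjamini-Hochberg adjusted p under 0.05 as a call. Slope p-values were adjusted over the 13353 genes that are not members. The fit at equal index is the group fit with the index as a covariate. The number of arrays limits the precision. On simulated data (13359 genes) the fit of calorie restricted against ad libitum recovered 41% of changes of 0.585 and 87% of changes of 1 in log2.

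The members and all gene lists were chosen with earlier results of these data known. Named were all member probe sets, the 4 smallest slope p in each direction, up to 4 genes of each list by slope p and a fixed set of heart genes; exceptions are marked. Other pseudocounts, filters, quantile normalization, every probe set, other indices, a replicate block and left-out arrays were tried.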

Additional observations from a re-analysis of the deposited data

Results flagged for a closer look

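In 9 of 40 groups of 4 or 5 arrays tested, 1 array stood off from the rest of its group, by the gap to its nearest neighbour as a share of the group's range (Dixon's test on log2 values). Chance gives about 1 in 20 groups for genes not chosen on their spread. The members were chosen on uneven signal in these same arrays, so the count is a description and no test. The groups are also not independent, since the members were measured on the same arrays. Leptin replicate 2 was the highest leptin array for Sln (0.800) and for Bmp10 (0.849). Ad libitum replicate 1 was the highest ad libitum array for Myl7 (0.938), Myl4 (0.863), Sln (0.968) and the atrial index (0.965), and the lowest for the second Tbx5 set (0.870). On the second Myl4 set, which lay above the pseudocount in every array, leptin replicate 4 was high (0.727) and wild type replicate 4 was low (0.843). Neither of these arrays stood off for Myl7, the first Myl4 set or Sln. Calorie restricted replicates 2 and 3 were not picked out by this test, because each lies close to the other.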

How the results depend on the processing

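The number of genes rising with the index, members left out of the adjustment, was 0 in the fit reported and 1 with a pseudocount of 16 (Hamp), 1 without a filter (Tmem163, named after its value was seen) and 1 over every probe set (the second Hamp set). Leaving out 1 array at a time gave 0 rising and 0 falling genes. Calls between ad libitum and wild type hearts numbered 20 with a pseudocount of 1, 13 without a filter, 18 without calorie restricted replicates 2 and 3, 17 with the index as a covariate, and 5 (without ad libitum replicate 3) to 45 with 1 array left out, against 40. Calls between leptin treated and ad libitum hearts numbered 54 without a filter, 132 with the filter at the 60th percentile and 35 (without leptin replicate 2) to 93, against 86. With 1 array left out, calls ran from 444 (without ad libitum replicate 4) to 737 between calorie restricted and ad libitum hearts, against 725, and from 1382 (without calorie restricted replicate 2) to 1817 between leptin treated and calorie restricted hearts, against 1819. Without calorie restricted replicates 2 and 3 these 2 counts were 358 and 1029, and with the covariate 340 and 1156. The cause of these shifts was not tested, beyond the smaller number of arrays or genes.

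Replicate numbers did not pair the arrays: of 25 pairs with the same number 1 correlated above 0.1 (range -0.18 to 0.34), and 2 of 18 arrays correlated best with their own number. With the replicate block, 0 genes rose or fell with the index, and 11, 512, 23 and 1574 were called in the comparisons of ad libitum with wild type, calorie restricted with ad libitum, leptin with ad libitum and leptin with calorie restricted hearts.

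The slopes that changed sign were Myh6 with quantile normalization (2.56e-04), Hand2 (0.0072) and Gata4 (0.024) with the replicate block, and Nkx2-5 with an index of Myl7 alone (-0.0029) or of Myl7, Myl4 and Sln (-6.37e-04). Without calorie restricted replicates 2 and 3 Kcnj5 (-0.019), Tbx20 (-0.027), Gata6 (-0.017), Gpm6a (-0.0072) and Nkx2-5 (-0.058) turned negative. With 1 array left out, slopes ran from -0.043 to 0.011 for Gata4, -0.018 to 0.017 for Nkx2-5, -0.16 to 0.017 for Myl1, -0.039 to 0.010 for Myl2 and -0.0082 to 0.17 for Nppb. Dim sets limit what can be read: at or below the pseudocount, in 10 of 18 arrays for Sln, values have no order. Over the 18 arrays the log2 range of the second sets was 1.5 for Myl4, 2.61 for Sln and 1.58 for Tbx5, against 6.08, 8.39 and 3.25 for the sets used.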
